A study of Homo sapiens and Mus musculus with 4 samples.

Results

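Asparagine synthetase, the transcription factor ATF4, stress genes that ATF4 is known to drive and amino-acid transporters were read in bulk RNA of 4 lymphoid cell lines. They were chosen by symbol, as 10 human genes and the mouse genes of the same symbol, and all 20 were found among the 60736 genes measured. Jurkat (human, described by the study as a CD4 T line) was grown in RPMI medium with serum, and TALL104 (human, described as a CD8 T line) in IMDM with serum, an L-Glu supplement and interleukin-2. EL4 (mouse, described as a CD4 T line) was grown in RPMI with serum, added glutamine and 2-mercaptoethanol, and IVA12 (mouse, described as a B-cell line) in DMEM with serum. Each is an established line with no treatment named in the labels. The paired lines differed in medium, so a line and its medium cannot be told apart. The paper also reports that TALL104 was harder to culture, with lowered viability and slow growth. The state of that culture cannot be told apart from the line either, and its part in the results was not tested.

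Each line gave 1 library, so there was no replicate error and no test was made between lines. Values are FPKM, fragments scaled by gene length and by the library's total, which allows genes of different length to be compared within a library. Reads were recovered from the FPKM steps, at totals from 25286728 to 34783047 per library, and each interval below is a 95% interval for counting these reads only. Of 5 T-cell markers, all were detected at 1 FPKM or more in Jurkat, TALL104 and EL4 and 2 in IVA12. Of 5 B-lineage markers, 3 were detected in IVA12 (summed level 1499 FPKM), 2 in TALL104 (30.4), 1 in Jurkat (16.7) and 0 in EL4 (0.624). The part of these markers in the results was not tested. CD4 itself was below 1 FPKM in Jurkat, at 0.985, and in EL4, at 0.208.

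When amino acids run short or unfolded protein builds up, kinases phosphorylate the initiation factor eIF2, general translation slows and the ATF4 message is translated more. ATF4 protein then raises genes for amino-acid synthesis and import, for tRNA charging and for stress control, so the ATF4 message alone does not report ATF4 activity. ASNS makes asparagine from aspartate and glutamine, and lymphoid leukaemias that make little of it are known for their sensitivity to asparaginase.

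ATF4 binds together with C/EBP-family partners at sites with the core TGATGNAA. These 8 letters were searched on both strands of the RefSeq promoters (GRCh38.p14, from 250 bases before to 50 bases after each gene start). They were found in 3 of the 9 human member promoters in the table, those of ASNS, CHAC1 and SLC3A2, and in 3.62% of all 35116 promoters of that length. SLC7A11 was not matched. The 2 matches that lie before the gene start are shown with 16 bases on each side, ASNS as the enzyme at the centre of the set and CHAC1 because its mouse counterpart had the widest ratio of the members, and capitals mark the match.
ASNS, chr7:97872453-97872492, minus strand, match 68 to 61 bases before the start: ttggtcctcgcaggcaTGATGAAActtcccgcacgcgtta
CHAC1, chr15:40953246-40953285, plus strand, match 209 to 202 bases before the start and read on the opposite strand: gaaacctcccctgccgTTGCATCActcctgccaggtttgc
A match describes letters and not binding. The promoters of ATF4, DDIT3, TRIB3, SESN2, SLC7A5 and SLC1A5 did not hold these letters in the window.

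Most members kept within 1.5-fold in the human pair and most passed it in the mouse pair. Genes were counted as different above 1.5-fold on FPKM + 1. Of the 10 human members, 9 reached 1 FPKM in either line and 4 differed, with 3 higher in TALL104 (ASNS, DDIT3 and SESN2) and 1 higher in Jurkat (SLC7A5). Of all 12214 human genes with at least 1 FPKM in either line, 62.6% differed, 34.2% higher in Jurkat and 28.4% higher in TALL104. The median log2 ratio of Jurkat over TALL104 was -0.02 for the members and 0.10 for all of these genes.

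All 10 mouse members reached 1 FPKM in either line and 7 differed, with 5 higher in IVA12 (Atf4, Trib3, Chac1, Sesn2 and Slc1a5) and 2 higher in EL4 (Ddit3 and Slc7a11). Of all 10801 mouse genes with at least 1 FPKM in either line, 50.3% differed, 23.8% higher in EL4 and 26.5% higher in IVA12. The median log2 ratio of EL4 over IVA12 was -0.53 for the members and -0.04 for all of these genes. Bulk libraries do not separate fewer cells that express a gene from less RNA per cell.

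**Figure D1:**
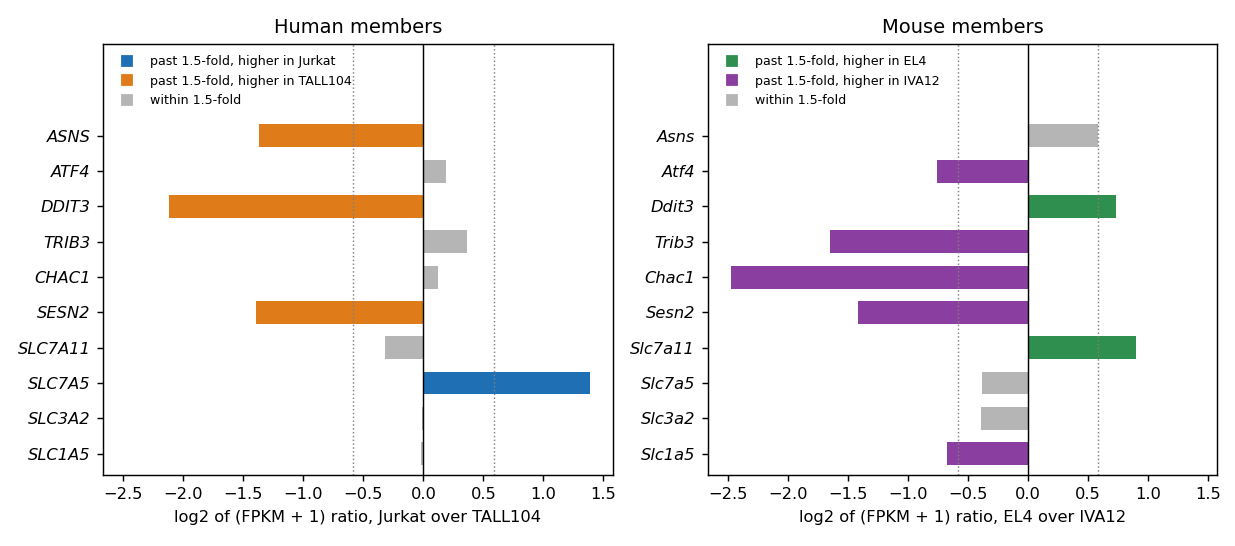
Log2 of the (FPKM + 1) ratio of each member, Jurkat over TALL104 for the human genes and EL4 over IVA12 for the mouse genes, 1 library per line. Dotted lines mark 1.5-fold. DDIT3 has the lowest human ratio, -2.12, and Chac1 the lowest mouse ratio, -2.47.

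ATF4 was among the highest-ranked messages of every library. The human gene (ENSG00000128272, hg19 chromosome 22, 39915700 to 39918688, protein-coding) stood at 172 FPKM (interval 170 to 175) in Jurkat, against 151 (148 to 154) for TALL104. The ratio of 1.14 (1.11 to 1.17) lay within 1.5-fold. Among own-species genes with at least 1 FPKM, ATF4 stood at percentile 98.7 in Jurkat and 98.6 in TALL104. Mouse Atf4 (ENSMUSG00000042406, mm10 chromosome 15, 80255184 to 80257541) stood at 147 FPKM (144 to 150) in EL4, against 250 (245 to 254) for IVA12. IVA12 was thus 1.70-fold higher (1.65 to 1.75), with percentiles of 96.75 in EL4 and 98.4 in IVA12.

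ASNS was a middling to low message in both human lines and among the highest in both mouse lines. Human ASNS (ENSG00000070669, hg19 chromosome 7, 97480989 to 97501854, overlapping another annotated gene on each strand) stood at 3.92 FPKM (3.62 to 4.25) in Jurkat, against 11.7 (11.1 to 12.3) for TALL104. TALL104 was 2.98-fold higher (2.71 to 3.28). Jurkat placed the gene at percentile 25.9 of its detected human genes and TALL104 at 61.0.

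Mouse Asns (ENSMUSG00000029752, mm10 chromosome 6, 7675169 to 7693254) stood at 274 FPKM (270 to 277) in EL4, against 182 (179 to 186) for IVA12. These levels were at percentiles 98.5 and 97.6. The FPKM ratio of EL4 over IVA12 was 1.501 (1.47 to 1.53), at the threshold, and with 1 FPKM added to each value the gene fell just short of 1.5-fold, at a log2 ratio of 0.58. Taken against ATF4 in the same library, the level of Asns was 1.87 times that of Atf4 in EL4 and 0.731 times in IVA12, whereas human ASNS was at 0.0228 of ATF4 in Jurkat and 0.0773 in TALL104. Human and mouse gene models differ, so the species are set side by side and no test was made between them.

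**Figure D2:**
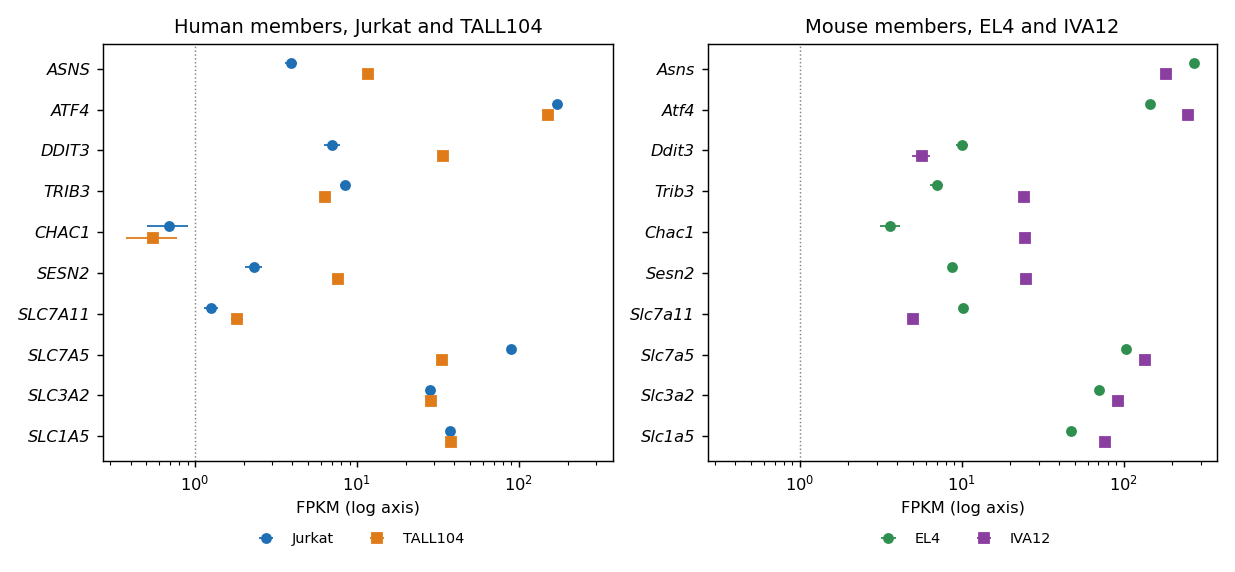
FPKM of the 10 members on a log axis in the human lines (left) and the mouse lines (right), with 95% counting intervals, many of which are smaller than the points. The dotted line is 1 FPKM. Human CHAC1 is the only member below it in both lines, and Asns is the highest mouse member in EL4, at 274 FPKM.

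The stress targets did not move as a block. DDIT3 encodes CHOP, a transcription factor linked to cell death under prolonged stress. Human DDIT3 (ENSG00000175197, hg19 chromosome 12, 57910371 to 57915520) stood at 7.03 FPKM (6.24 to 7.89) in Jurkat, against 33.9 (31.9 to 35.9) for TALL104, a 4.82-fold higher level in TALL104 (4.23 to 5.50). Its percentile among the detected genes was 42.9 in Jurkat and 89.6 in TALL104. The gene overlaps MIR616 and another annotated gene on its own strand and MARS1 and MBD6 on the other, and the counting strand was not given in the sources used here.

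Mouse Ddit3 (ENSMUSG00000025408, mm10 chromosome 10, 127290774 to 127296288) stood at 10.1 FPKM (9.26 to 10.95) in EL4, against 5.66 (4.97 to 6.41) for IVA12. It overlaps another annotated entry of the same symbol on its own strand, and Mars and Gm4189 on the other. EL4 was 1.78-fold higher (1.53 to 2.08). Ddit3 was thus higher in the line where Atf4 was lower.

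TRIB3 is a pseudokinase that is known to feed back on ATF4 and CHOP. Human TRIB3 (ENSG00000101255, hg19 chromosome 20, 343479 to 378203) stood at 8.45 FPKM (7.89 to 9.03) in Jurkat, against 6.35 (5.83 to 6.92) for TALL104, a ratio of 1.33 (1.19 to 1.48) that lay within 1.5-fold. Mouse Trib3 (ENSMUSG00000032715, mm10 chromosome 2, 152337422 to 152344032) stood at 7.03 FPKM (6.41 to 7.68) in EL4, against 24.2 (22.9 to 25.6) for IVA12, 3.45-fold higher in IVA12 (3.10 to 3.83).

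CHAC1 encodes an enzyme that degrades glutathione. Human CHAC1 (ENSG00000128965, hg19 chromosome 15, 41245160 to 41248710) was the lowest human member, with 0.687 FPKM in Jurkat (0.508 to 0.908, 49 reads) and 0.550 in TALL104 (0.376 to 0.777, 32 reads). The interval of its ratio, 0.783 to 2.01, included 1, so no difference was detectable at this depth. Mouse Chac1 (ENSMUSG00000027313, mm10 chromosome 2, 119351229 to 119354381) stood at 3.63 FPKM (3.13 to 4.18) in EL4, against 24.7 (23.2 to 26.3) for IVA12. At 6.81-fold higher in IVA12 (5.83 to 7.99), it had the widest ratio of the 20 members.

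SESN2 encodes sestrin 2, a leucine-responsive inhibitor of mTORC1 signalling. Human SESN2 (ENSG00000130766, hg19 chromosome 1, 28586029 to 28609002) stood at 2.31 FPKM (2.04 to 2.59) in Jurkat, against 7.66 (7.12 to 8.23) for TALL104, 3.32-fold higher in TALL104 (2.89 to 3.83). Mouse Sesn2 (ENSMUSG00000028893, mm10 chromosome 4, 132492032 to 132510501) stood at 8.75 FPKM (8.21 to 9.31) in EL4, against 25.0 (23.9 to 26.0) for IVA12, 2.86-fold higher in IVA12 (2.65 to 3.08). In IVA12, Trib3, Chac1 and Sesn2 lay close together, at percentiles of 74.8, 75.4 and 75.7, while Ddit3 was at 32.2.

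**Figure D3:**
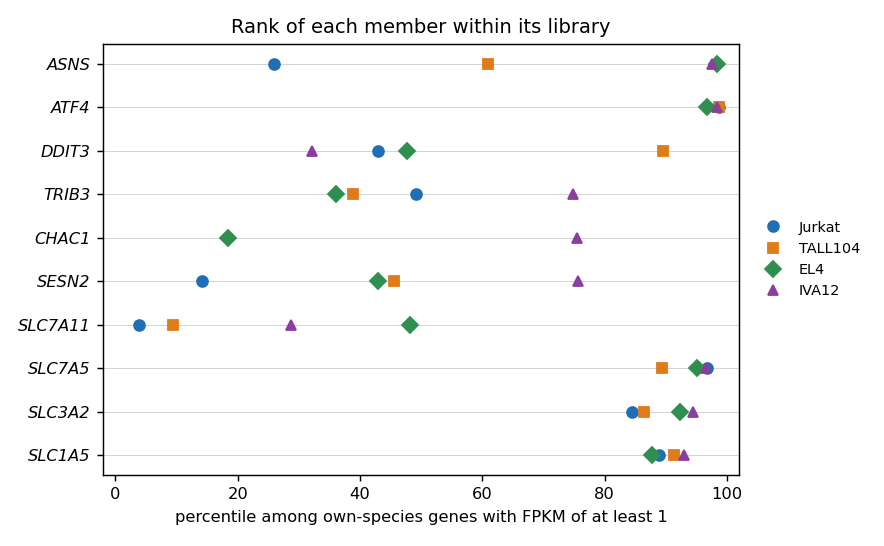
Percentile of each member among genes of the library's own species with at least 1 FPKM, 1 point per library. ASNS ranges from 25.9 in Jurkat to 98.5 in EL4, ATF4 stays above 96 in all 4 libraries, and human CHAC1 has no point because it was below 1 FPKM.

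The cystine importer SLC7A11 was the lowest of the 4 transporter members in every library. SLC7A5 was the highest in Jurkat, EL4 and IVA12, and SLC1A5 in TALL104. SLC7A5 (LAT1) carries large neutral amino acids such as leucine. Human SLC7A5 (ENSG00000103257, hg19 chromosome 16, 87863629 to 87903113) stood at 89.3 FPKM (87.9 to 90.8) in Jurkat, against 33.6 (32.6 to 34.6) for TALL104, 2.66-fold higher in Jurkat (2.57 to 2.75). It was the only human member above 1.5-fold in that direction. Mouse Slc7a5 (ENSMUSG00000040010, mm10 chromosome 8, 121881150 to 121907694) stood at 103 FPKM (101 to 105) in EL4, against 135 (133 to 137) for IVA12, 1.31-fold higher in IVA12 (1.28 to 1.34) and within the threshold.

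SLC7A11 (xCT) imports cystine in exchange for glutamate and feeds glutathione synthesis. Human SLC7A11 (ENSG00000151012, hg19 chromosome 4, 139085251 to 139163503, with an annotated antisense gene) stood at 1.25 FPKM (1.14 to 1.38) in Jurkat, against 1.81 (1.66 to 1.98) for TALL104, at percentiles of 3.81 and 9.48. The FPKM ratio of TALL104 over Jurkat was 1.45 (1.27 to 1.65). Mouse Slc7a11 (ENSMUSG00000027737, mm10 chromosome 3, 49892526 to 50443614) stood at 10.2 FPKM (9.87 to 10.5) in EL4, against 4.98 (4.75 to 5.22) for IVA12, 2.04-fold higher in EL4 (1.93 to 2.16), the line grown with 2-mercaptoethanol. The part of the medium in that difference was not tested. Mouse Slc7a11 overlaps 2 annotated genes on its own strand and 3 on the other.

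SLC3A2 (4F2hc) is the heavy chain that both light chains need at the cell surface. Human SLC3A2 (ENSG00000168003, hg19 chromosome 11, 62623476 to 62656352) stood at 28.4 FPKM (27.6 to 29.1) in Jurkat, against 28.6 (27.8 to 29.5) for TALL104, and the interval of the ratio, 0.951 to 1.03, included 1. Mouse Slc3a2 (ENSMUSG00000010095, mm10 chromosome 19, 8706882 to 8723369) stood at 70.1 FPKM (68.6 to 71.7) in EL4, against 92.2 (90.2 to 94.2) for IVA12, 1.31-fold higher in IVA12 (1.27 to 1.36), close to the ratio of Slc7a5.

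SLC1A5 (ASCT2) exchanges glutamine and other neutral amino acids. Human SLC1A5 (ENSG00000105281, hg19 chromosome 19, 47278140 to 47291851) stood at 37.6 FPKM (36.4 to 38.7) in Jurkat, against 38.1 (36.8 to 39.3) for TALL104, with a ratio interval of 0.944 to 1.03. Mouse Slc1a5 (ENSMUSG00000001918, mm10 chromosome 7, 16781340 to 16798274) stood at 47.6 FPKM (46.4 to 48.7) in EL4, against 76.5 (74.8 to 78.2) for IVA12, 1.61-fold higher in IVA12 (1.56 to 1.66).

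The human libraries were shifted against each other. The genes detected in Jurkat and in TALL104 had a median log2 FPKM ratio of 0.11, toward Jurkat, and mitochondrially encoded genes held 14.9% of the human FPKM in Jurkat and 20.6% in TALL104. With each ratio taken relative to that median, the 4 human members that differed were still 1 higher in Jurkat and 3 higher in TALL104. The log2 ratio moved from 0.19 to 0.08 for ATF4, from -0.01 to -0.12 for SLC3A2 and from -0.02 to -0.13 for SLC1A5. The counting intervals given above do not cover this shift.

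Light and heavy chains can be compared within a library, because FPKM is per length. SLC7A5 over SLC3A2 was 3.15 in Jurkat (3.05 to 3.25), against 1.17 (1.125 to 1.22) for TALL104, 1.47 (1.43 to 1.515) for EL4 and 1.46 (1.42 to 1.51) for IVA12. In the human pair the interval of Jurkat lay above that of TALL104, and in the mouse pair those of EL4 and IVA12 overlapped. SLC7A11 over SLC3A2 was 0.0441 in Jurkat and 0.0634 in TALL104, and 0.145 in EL4 and 0.0540 in IVA12. Human and mouse gene models differ in length, so these ratios are not ranked across species. Counting all 6 SLC7 light chains on the list raised TALL104 from 1.24 for SLC7A5 plus SLC7A11 to 2.46, and Jurkat from 3.19 to 3.81. SLC7A6, another light chain, had 33.8 FPKM in TALL104 and 16.7 in Jurkat.

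**Figure D4:**
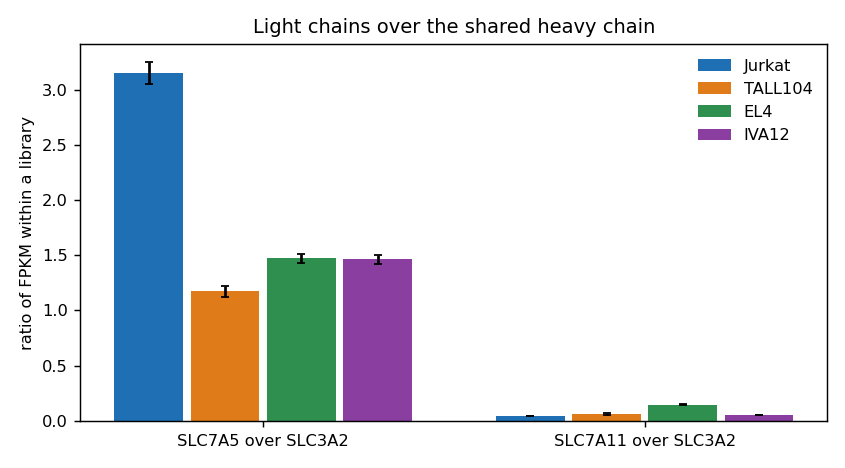
Ratio of FPKM of SLC7A5 (left group of bars) and SLC7A11 (right group) over SLC3A2 within each library, with mouse genes for EL4 and IVA12. Error bars are 95% counting intervals. Jurkat has the higher SLC7A5 ratio of the human pair, 3.15, and EL4 the higher SLC7A11 ratio of the mouse pair, 0.145.

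The other genes of the pathway were read from 9 lists with 123 genes, all measured in both species. Past 1.5-fold, 44 were higher in Jurkat, 23 in TALL104 and 56 in neither. The mouse counts were 23 toward EL4, 44 toward IVA12 and 56 in neither. In both pairs 67 of the 123 thus differed. Of the list genes, 107 human and 112 mouse genes had at least 1 FPKM in either line, as the background requires. Among these, 67 human and 66 mouse genes differed, beside 62.6% of all human and 50.3% of all mouse genes compared. The human lists as a whole thus lay near the background and the mouse lists somewhat above it, and this excess was not tested. Median log2 ratios were 0.17 for the human and -0.30 for the mouse genes. For each list below, the counts are to be read against the shares of all genes, which were 34.2% toward Jurkat and 28.4% toward TALL104, and 23.8% toward EL4 and 26.5% toward IVA12. The list counts keep genes below 1 FPKM in both lines, which these shares leave out. In each list the 2 genes with the largest ratio of FPKM + 1 are given for each pair. Some genes of low level had larger ratios of FPKM itself, such as Slc1a3, with 1 read in EL4 and 6.91 FPKM in IVA12. Ratios printed with an interval are of FPKM, and the further genes were chosen for their role after their values were seen.

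Enzymes of serine, glycine, proline and one-carbon metabolism, many of them known ATF4 targets, had the highest median of the 9 lists in the human pair. Of 12 human genes, 11 were higher in Jurkat and 0 in TALL104, with a median log2 ratio of 1.89, beside 34.2% and 28.4% of all genes. BCAT1, which transaminates branched-chain amino acids, was at 28.1 FPKM in Jurkat, against 0.0986 for TALL104, a ratio of 285 (198.5 to 426). PSAT1, a step of serine synthesis, had 87.7 and 15.7 FPKM, a ratio of 5.57 (5.21 to 5.97), and PHGDH, the first step, had 20.1 and 4.24 FPKM. These enzymes were thus higher in Jurkat, where ASNS, DDIT3 and SESN2 were lower and ATF4 was within 1.5-fold.

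In the mouse pair, 8 of the 12 were higher in IVA12 and 0 in EL4, with a median of -0.93. The 8 include Cbs, which was below 1 FPKM in both lines, at 0 in EL4 and 0.674 in IVA12. Cth, which makes cysteine from cystathionine, was listed at 0 in EL4, against 30.5 FPKM in IVA12. Aldh1l2, a mitochondrial folate enzyme, was listed at 0 in EL4, against 10.5 FPKM for IVA12. The serine synthesis genes Phgdh, at 195 and 166 FPKM in EL4 and IVA12, and Psat1, at 181 in both, lay within 1.5-fold. Psph, the last step of serine synthesis, was at 6.78 FPKM in EL4 and 40.1 in IVA12, 5.92-fold higher in IVA12 (5.52 to 6.36).

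Cytosolic aminoacyl-tRNA synthetases, which charge tRNAs, were mostly within 1.5-fold. Of 20, 9 were higher in Jurkat and 0 in TALL104 (median 0.50), beside 34.2% and 28.4% of all genes. In the mouse pair, IVA12 was higher in 7 and EL4 in 0 (median -0.34), beside 26.5% and 23.8%. The phenylalanyl subunits FARSB, at 43.9 and 10.2 FPKM, and FARSA, at 98.0 and 26.1 FPKM in Jurkat and TALL104, had the largest human ratios. Eprs, at 20.7 and 46.9 FPKM, and Tars, at 133 and 281 FPKM in EL4 and IVA12, had the largest mouse ratios. The TGATGNAA letters were in 6 of the 16 synthetase promoters that the RefSeq table held, beside 3 of 9 member promoters and 3.62% of all promoters. The other lists had fewer, with 3 of 17 transporters, 2 of 12 other stress targets, 1 of 12 kinase, eIF2 and phosphatase genes, 1 of 9 bZIP factors, 1 of 8 serine and one-carbon enzymes, 1 of 8 glutamine, asparagine and aspartate enzymes, 0 of 7 glutathione genes and 0 of 11 sensing genes.

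The next list held the eIF2 kinases and GCN1, eIF2, its exchange factor and phosphatase genes of the stress response. Of these 13 genes, Jurkat was higher in 4 and TALL104 in 2, EL4 in 3 and IVA12 in 4. PPP1R15A (GADD34), which restores translation by directing eIF2 dephosphorylation, was at 5.14 FPKM in Jurkat, against 31.1 for TALL104, 6.05-fold higher in TALL104 (5.52 to 6.64). EIF2AK3 (PERK), the kinase of the endoplasmic reticulum, had 5.50 and 18.1 FPKM. EIF2AK4 (GCN2), the kinase that senses uncharged tRNA, went the other way, at 4.46 FPKM in TALL104 and 11.6 in Jurkat.

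In the mouse pair, Eif2ak4 was at 9.97 FPKM in EL4, against 4.36 for IVA12, and Eif2b4, a subunit of the eIF2 exchange factor, had 17.9 and 55.5 FPKM. Eif2ak3 lay within 1.5-fold, at 13.1 and 17.0 FPKM. Ppp1r15a was 2.17-fold higher in IVA12 (1.92 to 2.46), at 4.39 and 9.55 FPKM.

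Partner and related bZIP factors numbered 9, with Jurkat higher in 4, TALL104 in 3, EL4 in 2 and IVA12 in 5. XBP1, the factor of the unfolded protein response and of plasma cells, was at 31.3 FPKM in Jurkat, against 76.6 for TALL104, while mouse Xbp1 was at 15.9 for EL4 and 133 for IVA12, 8.32-fold higher in IVA12 (7.90 to 8.77). NFE2L2 was at 12.9 FPKM in Jurkat, against 27.1 for TALL104. Jdp2 had 0.0827 FPKM in EL4 (5 reads) and 5.66 in IVA12.

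Other stress targets were mixed, and of 15, 11 human and 13 mouse genes reached 1 FPKM in either line. Jurkat was higher in 4, TALL104 in 6, EL4 in 3 and IVA12 in 6. SESN1, a sestrin best known as a p53 target, was at 3.19 FPKM in Jurkat, against 96.4 for TALL104, 30.2-fold higher in TALL104 (27.8 to 32.9). CDKN1A, a cell-cycle inhibitor that is also a p53 target, had 0.356 and 13.8 FPKM. HERPUD1, a gene of endoplasmic reticulum stress, had 7.17 and 26.5 FPKM. In the mouse pair, Trib2 had 11.1 FPKM in EL4 and 1 read in IVA12, and Gpt2, an alanine aminotransferase, had 3.48 and 26.4 FPKM.

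Among the other amino-acid transporters, of 20, 13 human and 15 mouse genes reached 1 FPKM in either line. Jurkat was higher in 2, TALL104 in 6, EL4 in 3 and IVA12 in 9. SLC1A4, which carries serine and other small neutral amino acids, was at 5.59 FPKM in Jurkat, against 30.3 for TALL104, and SLC7A1, which carries arginine and lysine, had 30.9 and 7.65 FPKM. In the mouse pair, the glutamine transporter Slc38a1 was at 62.5 FPKM in EL4, against 5.43 for IVA12, an 11.5-fold difference (10.8 to 12.2), and Slc7a8 had 0.224 and 9.10 FPKM. Slc38a2, a related glutamine transporter and known ATF4 target, went the other way, at 69.2 and 138 FPKM.

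Enzymes of glutamine, asparagine and aspartate numbered 10, with Jurkat higher in 4, TALL104 in 2, EL4 in 3 and IVA12 in 1. ASRGL1, which can hydrolyse asparagine, was at 11.6 FPKM in Jurkat, against 0.139 for TALL104, opposite in direction to ASNS. Mouse Asrgl1 was at 40.2 FPKM in EL4, against 13.98 for IVA12, in the same direction as Asns, at 274 and 182 FPKM. Glutamine synthetase GLUL was at 51.7 FPKM in Jurkat, against 10.2 for TALL104, and the glutaminase Gls2 had 0.501 in EL4 and 8.61 in IVA12.

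Glutathione genes had the highest median of the 9 lists in the mouse pair, 0.90, with EL4 higher in 7 of 10 and IVA12 in 1, beside 23.8% and 26.5% of all genes. Nqo1, a quinone reductase that NFE2L2 is known to drive, was at 32.2 FPKM in EL4, against 0.433 for IVA12, and Gclm, a subunit of the first enzyme of glutathione synthesis, had 29.8 and 7.89 FPKM. Slc7a11, a member, was also higher in EL4. In the human pair the list was split, 4 higher in Jurkat and 3 in TALL104, with NQO1 at 4.84 and 33.0 FPKM and GGT1 at 9.03 and 1.78 FPKM. Amino-acid sensing genes upstream of mTORC1 differed in 3 of 14 in the human pair, beside 62.6% of all genes. In the mouse pair 5 of 14 differed, beside 50.3%. The largest ratios there were those of RRAGD, at 9.20 and 0.230 FPKM in Jurkat and TALL104, NPRL2, at 7.98 and 18.4, Rragb, at 21.5 and 5.27 in EL4 and IVA12, and Castor1, at 0.158 and 1.98.

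**Figure D5:**
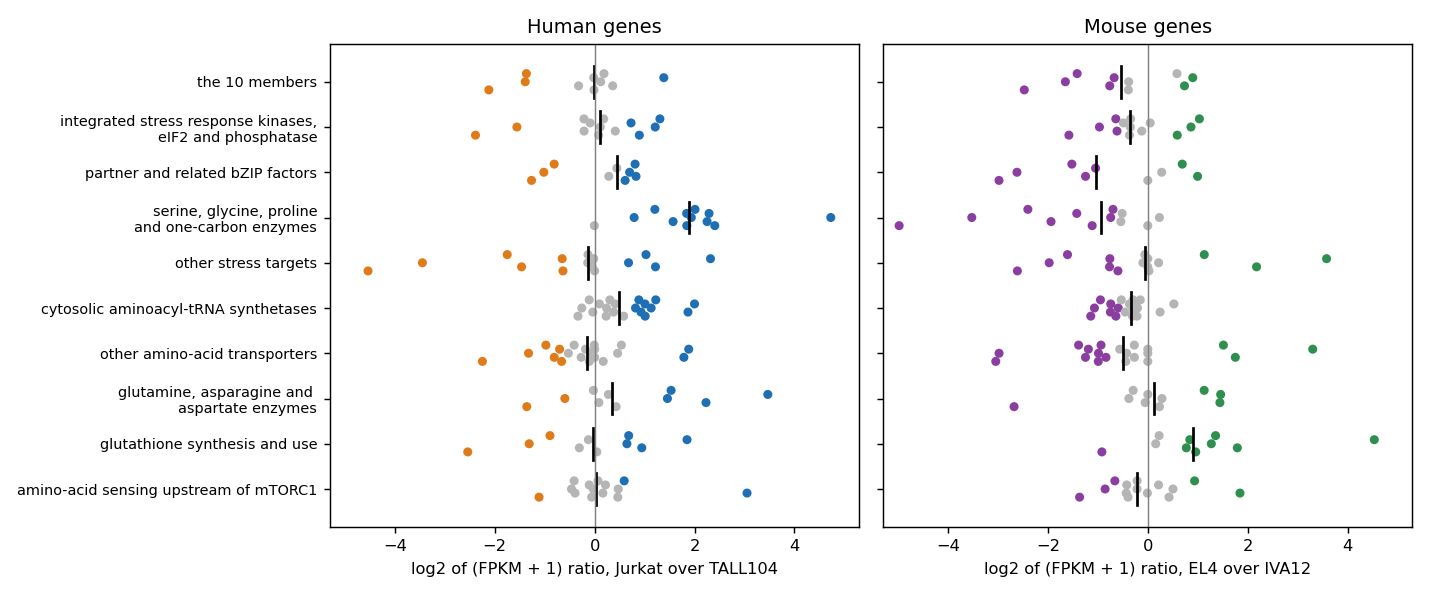
Log2 of the (FPKM + 1) ratio of the 10 members and of each gene of the 9 lists, Jurkat over TALL104 (left) and EL4 over IVA12 (right). Points in colour passed 1.5-fold (blue Jurkat, orange TALL104, green EL4, purple IVA12), grey points did not, and black bars are medians, at 1.89 (human) and -0.93 (mouse) for the serine, glycine, proline and one-carbon enzymes.

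The 5 genes nearest to ASNS in its pair of log2 ratios, -1.37 for the human and 0.58 for the mouse gene, were VAMP2, TRADD, TRMO, FOXO3 and TLN1. Their distances were from 0.0211 to 0.0636 on the log2 scale, over 8286 genes of shared symbol. This likeness rests on 2 ratios a gene, and none of the other members was among the 5.

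Reads had been aligned to human and mouse genomes together, so the members of the other species give a background. Their summed FPKM was from 0.0213% (EL4) to 0.0952% (IVA12) of the summed FPKM of the library's own members, and none reached 1 FPKM. The highest was human ATF4 in IVA12, at 0.267 FPKM.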

How the data were processed

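RNA of 4 cell lines was measured with stranded mRNA libraries, 1 per line. Per the labels and the study's methods, reads were aligned with STAR 2.5.1b to hg19 (Ensembl 82) joined with mm10 (Ensembl 84) and counted per gene with featureCounts 1.6.3, and the authors deposited FPKM. The strand setting, the gene lengths and the treatment of reads with several alignments are not given in the sources used here, so reads of near-identical copies are uncertain. The table held 0 pseudogene rows named after a member and 0 unmapped columns.

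Reads were solved from the FPKM as whole numbers (relative tolerance 1e-12, lengths up to 300000 bases, scaled up to the annotated length where that was a whole multiple). The solved length equalled the annotated one for 22.2% of human and 73.0% of mouse genes above 0, so other genes may lack a common factor, and their intervals are then too wide. Jurkat had 34783047 reads in total, TALL104 28345951, EL4 32149319 and IVA12 25286728. Intervals of levels are exact Poisson, those of ratios between lines exact conditional binomial, and those of light over heavy chains log-normal. They cover counting error only, as reads are not independent molecules.

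Symbols came from GENCODE 44 lifted to hg19 and M21 for mm10, for 31182 human and 27722 mouse genes. Older symbols were taken as the same gene (Ero1l, Gcn1l1, and names of tRNA synthetases with or without a final 1). Log2 ratios used FPKM + 1, which draws low genes toward 0, and 1.5-fold was the threshold. With 1 library per line no model for counts was fitted. The background is the genes with at least 1 FPKM in either line. Members, lists and the naming rule (all members, the 2 genes of each list with the largest ratio, and the 5 nearest to ASNS) were chosen with earlier results of these data known. Alternatives were pseudocounts of 0.1 and 0.01, a 2-fold threshold, both scalings, a filter at 1 FPKM and the counting interval. The calculation was tested on simulated data that used the annotated length for every gene and changes of 2-fold or more. That test does not cover genes of another length or changes near 1.5-fold. Python 3.11.15, NumPy 2.4.6, pandas 2.3.3, SciPy 1.17.1 and matplotlib 3.10.9 were used.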

Additional observations from a re-analysis of the deposited data

Results flagged for a closer look

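Members of the other species held reads in each library, outside the values compared above and higher than the 3 counts that a count of 0 allows. The 10 mouse members held 17 reads in Jurkat and 23 in TALL104, and the 10 human members held 17 in EL4 and 70 in IVA12. The share of all reads on the other species was highest in IVA12, at 0.212%, with 0.0497% for EL4, 0.0405% for Jurkat and 0.0376% for TALL104. The source of these reads was not tested.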

How the results depend on the processing

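With no replicates, calls rest on the threshold. At 2-fold in place of 1.5-fold, 3 mouse members differed in place of 7, all of them higher in IVA12. The pathway genes that differed fell from 67 in each pair to 43 human and 39 mouse genes, since a higher threshold admits fewer genes. The share of all genes past 2-fold is not given here, so these counts have no background beside them. The human member median of -0.02 became -0.13 under median-ratio scaling and -0.12 with equal totals without mitochondrial genes. Of 80 single values over 4 alternatives, 76 kept their call, 0 reversed, and the other 4 were Asns in EL4 over IVA12, which passed 1.5-fold in each (0.59 or 0.60 against 0.58). SLC7A5 plus SLC7A11 over SLC3A2 (3.19 for Jurkat, 1.24 for TALL104, 1.62 for EL4, 1.52 for IVA12) became 3.81, 2.46, 2.14 and 1.99 with all SLC7 light chains and 2.93, 1.18, 2.12 and 1.75 from reads, which are not per length. Other counts, medians and background shares stayed within 1.5-fold or their counting interval. Depth limits human CHAC1, with 49 and 32 reads. No paired analysis was possible because each line has 1 library and lines share no numbered replicates.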
